A study of Mus musculus with 12 samples.

Results

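The 10 genes described here encode the D-type cyclins Ccnd1, Ccnd2 and Ccnd3, the E-type cyclins Ccne1 and Ccne2, the kinases Cdk4 and Cdk6, the inhibitors Cdkn1b and Cdkn2c, and the retinoblastoma protein Rb1. They were taken by name, each gene symbol matching 1 Ensembl identifier, from the 49671 genes counted in every library. The libraries came from NIH 3T3 cells, an established mouse fibroblast line, transfected with Lap2 siRNA or with a non-targeting control siRNA. A single siRNA sequence stood for the depletion, and it was directed against all isoforms of Lap2, a family of nuclear lamina-associated proteins encoded by Tmpo. For each siRNA, cells were kept in 0.3% FBS (serum-starved) or were given 15% FBS for 45 min (serum-stimulated), which gave 4 groups of 3 libraries. Total RNA was sequenced after removal of ribosomal RNA, and the libraries held between 18026298 and 26265253 counted reads. The labels do not say whether the 3 libraries of a group came from separate cultures, so the p-values measure the spread between these libraries, which may be technical.

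These genes form the switch that lets a resting cell enter the division cycle. Growth factors raise D-type cyclins, which bind CDK4 or CDK6 and start the phosphorylation of the retinoblastoma protein. Phosphorylation frees E2F transcription factors, and E2F drives the genes of DNA synthesis and also the E-type cyclins, which activate CDK2 and add further phosphorylation. The protein encoded by Cdkn1b, p27, holds cyclin-CDK2 complexes inactive in resting cells, and the protein encoded by Cdkn2c, p18, binds CDK4 and CDK6 directly. Serum-starved NIH 3T3 cells are a classical model of this step, and much of the control of these proteins is by turnover and phosphorylation, which mRNA counts do not show.

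Tmpo was at 2775 to 2885 normalized counts in control cells and at 982 to 1175 in cells given Lap2 siRNA in 0.3% FBS. In 15% FBS it was at 3019 to 3264 and at 607 to 767. A normalized count is the library's count scaled by edgeR's TMM factors to a common library size. Fos, an immediate early gene, rose 103-fold with serum in control cells and 99.4-fold after Lap2 siRNA, as the serum labels state. All 10 fibroblast marker genes were detected, and their summed level differed between the siRNA groups. It was 41139 to 42521 CPM (the count as a share of the library, scaled by the same factors) in control and 25359 to 30530 CPM in Lap2-depleted cells in 0.3% FBS, and 42703 to 46992 and 30666 to 34250 CPM in 15% FBS. Of the 10 markers, 7 were lower and 2 higher after Lap2 siRNA in 0.3% FBS, and 8 were lower in 15% FBS. The part of this in the results below was not tested. Epithelial, endothelial, blood and skeletal muscle markers summed to at most 2.56 CPM in any library, with Krt18, Cd3e, Myod1, Myog and Ckm at 0. In such bulk RNA, fewer cells that express a gene and less of its RNA in each cell cannot be told apart.

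All 10 genes passed the filter on low counts and were tested among 18668 genes. All 10 averaged at least 50 normalized counts, as did 11263 of the tested genes. The shares of all genes given below are over all 18668, so they are not matched for level. In control cells serum raised 5 of the 10 genes (Ccnd1, Ccnd2, Ccnd3, Ccne1 and Rb1) and lowered 1 (Cdkn1b), at an adjusted p under 0.05, where 29.5% of all tested genes were called. After Lap2 siRNA serum raised 3 (Ccnd2, Ccnd3 and Rb1) and lowered 4 (Ccnd1, Ccne1, Ccne2 and Cdkn1b), against 33.2% of all genes. Lap2 siRNA itself raised 4 (Ccnd1, Ccne1, Ccne2 and Rb1) and lowered 1 (Ccnd3) in 0.3% FBS, against 36.5% of all genes. In 15% FBS it raised 4 (Ccne1, Ccne2, Cdkn1b and Cdkn2c) and lowered 4 (Ccnd1, Ccnd2, Ccnd3 and Cdk6), against 23.4% of all genes. The count of 8 in 15% FBS was 5 without the third control library or the first Lap2 siRNA library in 15% FBS. Scaled to total counts, serum raised 4 and lowered 3 in control cells and raised 1 (Ccnd3) and lowered 7 after Lap2 siRNA, and Lap2 siRNA raised 6 and lowered 0 in 0.3% FBS and raised 5 and lowered 3 in 15% FBS. That scaling put the median of all genes at -0.21 and -0.23 in the serum comparisons and at 0.12 and 0.10 in the siRNA comparisons. Libraries of the groups compared did not overlap for 9 of the 10 genes with serum in control cells (42.0% of all tested genes), for 7 with serum after Lap2 siRNA (41.7%), for 6 with Lap2 siRNA in 0.3% FBS (43.4%) and for 9 with Lap2 siRNA in 15% FBS (38.8%). The serum response differed between the siRNAs for 5 genes, 4 with a more negative response after Lap2 siRNA (Ccnd1, Ccnd2, Ccne1 and Ccne2) and 1 with a more positive one (Cdkn1b), where 6.51% and 7.09% of all genes were called in these directions. The serum comparisons and the siRNA comparisons share libraries pairwise, so they are not separate evidence. Under TMM scaling the median change over all tested genes was between -0.01 and 0.02 on the log2 scale in these comparisons. TMM centres most genes near no change by design, so this median is not a separate result.

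**Figure D1:**
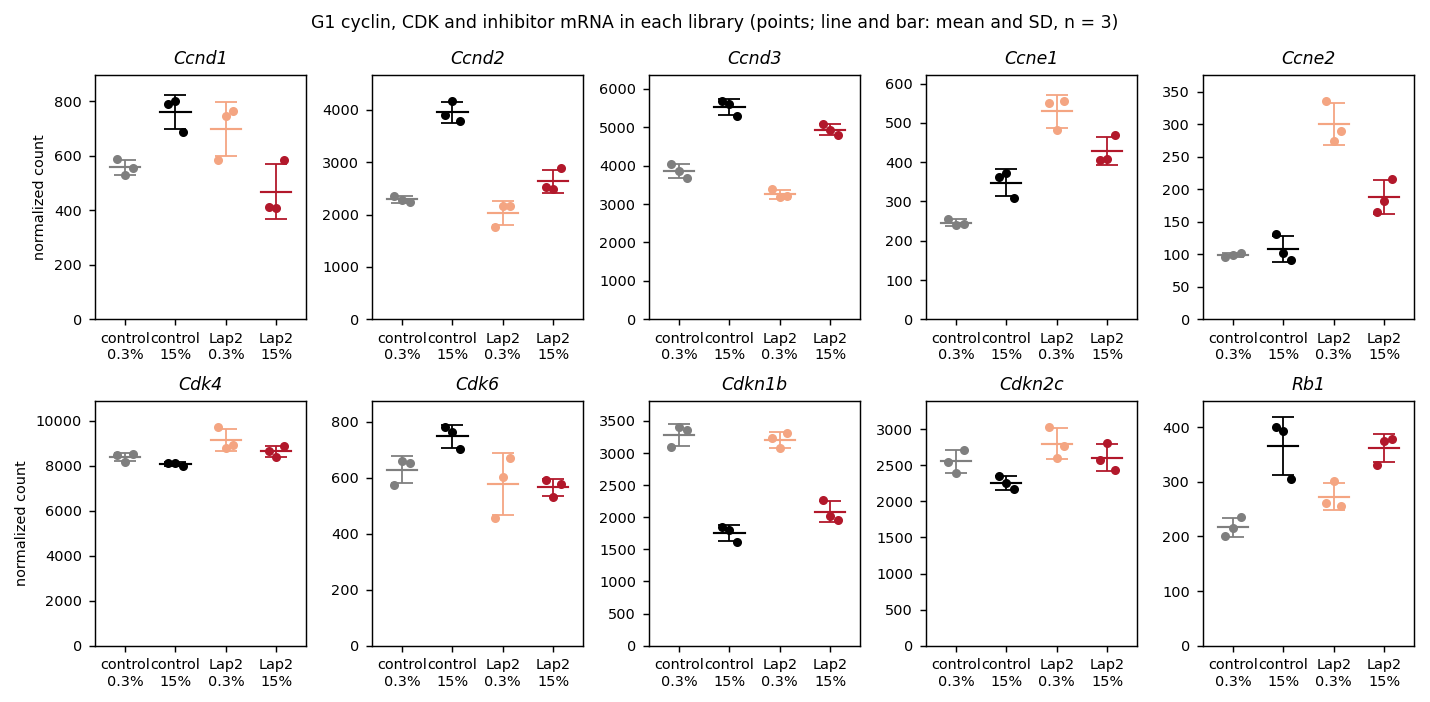
Normalized counts (vertical axis, from 0) of each of the 10 genes in the 12 libraries, grouped by siRNA and FBS, with 1 point per library and the mean and SD of each group of 3 libraries. Ccne1 and Ccne2 stand highest with Lap2 siRNA in 0.3% FBS, Ccnd2 stands highest in control cells in 15% FBS, and Cdkn1b stands lower in 15% than in 0.3% FBS with either siRNA.

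Ccnd1 (ENSMUSG00000070348, chr7:144929931-144939925, minus strand, GRCm38) encodes cyclin D1, the D-type cyclin most closely tied to growth factor signalling in fibroblasts. Its normalized counts were 588, 530.2 and 554 in control cells in 0.3% FBS and 789, 802 and 689 in 15% FBS. After Lap2 siRNA they were 585, 745 and 764 in 0.3% FBS and 414, 408 and 585 in 15% FBS. Serum thus went with more Ccnd1 RNA in control cells and with less after Lap2 siRNA, without overlap of the libraries in the first case and with the third Lap2 siRNA library in 15% FBS just below the lowest starved one in the second. The log2 change with serum was 0.45 ± 0.11 (SE; adjusted p = 0.00145, edgeR quasi-likelihood test with Benjamini-Hochberg adjustment) with control siRNA and -0.57 ± 0.11 (adjusted p = 0.000121) with Lap2 siRNA. The difference of these responses was -1.02 ± 0.16 (adjusted p = 1.43e-05), in a contrast that called 13.6% of all genes. It kept its call in each of the 12 fits that left out 1 library, where it lay between -1.22 and -0.92. Scaled to total counts alone, the rise of Ccnd1 in control cells was 0.24 with an adjusted p of 0.0776.

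Between the siRNAs, Ccnd1 fell by 0.69 on the log2 scale in 15% FBS (SE 0.11, adjusted p = 1.17e-05) with no overlap between the libraries. In 0.3% FBS it was higher by 0.32 ± 0.11 (adjusted p = 0.0194), but the first Lap2 siRNA library lay within the control range. That call was lost without the second control library (edgeR adjusted p = 0.0586) and without the second or the third Lap2 siRNA library (adjusted p = 0.0628 and 0.0853). The exons of Ccnd1 share 1100 bases, 23.4% of their length, with LTO1 on the other strand. The paper names a directional library kit, but the strand setting of the counting is not given in the sources used here. LTO1 itself had log2 changes of -0.09 in 0.3% FBS and 0.20 in 15% FBS between the siRNAs. With serum it changed by -0.31 in control cells and by -0.02 after Lap2 siRNA. The part of LTO1 reads in the Ccnd1 counts was not tested.

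Ccnd2 (ENSMUSG00000000184, chr6:127125162-127152193, minus strand) encodes cyclin D2. It was at 2353, 2284 and 2231 normalized counts in control cells in 0.3% FBS and at 3894, 4170.1 and 3786 in 15% FBS. After Lap2 siRNA it was at 1765, 2155 and 2162 in 0.3% FBS and at 2534, 2483 and 2880.1 in 15% FBS. Every serum-stimulated library stood above every starved one with the same siRNA, and the 3 control libraries in 15% FBS stood above all others. Serum raised Ccnd2 by 0.79 ± 0.07 on the log2 scale in control cells (adjusted p = 1.23e-10) and by 0.38 ± 0.07 after Lap2 siRNA (adjusted p = 0.000115). The difference was -0.41 ± 0.10 (adjusted p = 0.00632). The smaller rise was not called under scaling to total counts (0.15, adjusted p = 0.118). In 15% FBS Ccnd2 was lower after Lap2 siRNA by 0.58 on the log2 scale, at 66.6% of the control mean (adjusted p = 1.7e-07). In 0.3% FBS the difference was -0.18 with an interval of -0.33 to -0.02 and an adjusted p of 0.0631 that 6 of 20 alternative fits put under 0.05. It ranged from -0.21 to -0.07 over the fits without 1 library, with the smallest difference when the first Lap2 siRNA library was left out.

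Ccnd3 (ENSMUSG00000034165, chr17:47505051-47599691, plus strand) encodes cyclin D3, which had the highest level of the 3 D-type cyclins in every group. It was at 4052, 3859 and 3679 normalized counts in control cells in 0.3% FBS and at 5687, 5613 and 5288 in 15% FBS. In Lap2-depleted cells it was at 3383, 3172 and 3200.4 in 0.3% FBS and at 5085, 4929.7 and 4790.2 in 15% FBS. Libraries of the 4 groups did not overlap at all. The serum response was 0.52 ± 0.06 with control siRNA (adjusted p = 2.11e-08) and 0.60 ± 0.06 with Lap2 siRNA (adjusted p = 1.12e-09), and their difference of 0.08 had a 95% interval of -0.09 to 0.26. Lap2 siRNA lowered Ccnd3 by 0.25 in 0.3% FBS (SE 0.06, adjusted p = 0.00144) and by 0.16 in 15% FBS (SE 0.06, adjusted p = 0.0475). The latter call was lost in 5 of the 12 fits without 1 library, and scaling to total counts ended both (adjusted p = 0.076 and 0.396).

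The proportions of the 3 D-type cyclins differed between the groups. Levels were set per length, as CPM per kilobase of exon, to compare genes. Ccnd1 made up 14.2 to 15.2% of the summed D-type level in control cells in 0.3% FBS and 12.7 to 13.6% in 15% FBS. After Lap2 siRNA its share was 17.8 to 21.4% in 0.3% FBS and 9.38 to 12.7% in 15% FBS. The share was thus highest in starved Lap2-depleted cells and lowest in the same cells after serum, where the third library reached the control range. Ccnd3 took 54.9% ± 0.63 (SD, n = 3) and 52.0% ± 0.88 in control cells, and 50.6% ± 4.07 and 59.8% ± 3.35 after Lap2 siRNA, in 0.3% and 15% FBS respectively. With the longest transcript in place of all exons as the length, the Ccnd1 share was 9.86%, 8.98%, 13.8% and 6.87% on average in these 4 groups, in the same order. No test was made on shares.

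**Figure D2:**
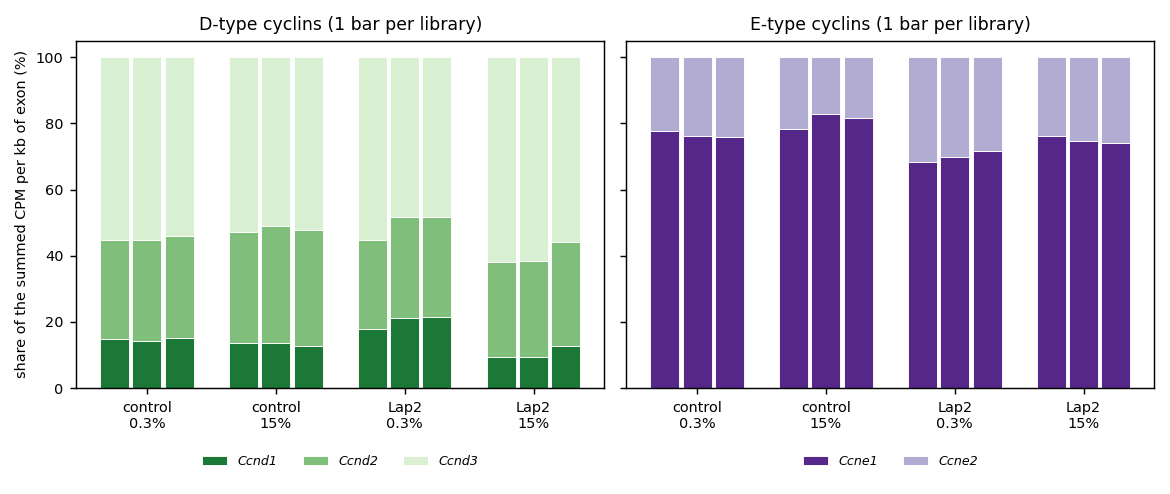
Share of each cyclin in the summed CPM per kilobase of exon of the D-type cyclins (left) and of the E-type cyclins (right), in percent, with 1 bar per library and 3 libraries per group. Ccnd1 takes 17.8 to 21.4% of the D-type sum with Lap2 siRNA in 0.3% FBS and 9.38 to 12.7% in 15% FBS, and Ccne2 takes its highest share of the E-type sum, 28.4 to 31.7%, with Lap2 siRNA in 0.3% FBS.

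In 0.3% FBS the E-type cyclins had the largest differences between the siRNAs among the 10 genes. Ccne1 (ENSMUSG00000002068, chr7:38097984-38107534, minus strand) encodes cyclin E1, a partner of CDK2 and an E2F target. It was at 256, 241 and 242 normalized counts in control cells in 0.3% FBS and at 362, 372 and 308 in 15% FBS. After Lap2 siRNA it was at 551, 482 and 556 in 0.3% FBS and at 404, 409 and 469 in 15% FBS. The starved Lap2-depleted libraries were above all 9 others, and the starved control libraries were below all others. Ccne1 was 2.15-fold higher after Lap2 siRNA in 0.3% FBS, a log2 change of 1.11 ± 0.10 (adjusted p = 1.02e-10), and 1.23-fold higher in 15% FBS, a log2 change of 0.30 ± 0.10 (adjusted p = 0.0273). The first call was kept in all alternative fits, with log2 changes from 1.08 to 1.21. The second was lost without the first or the third control library (adjusted p = 0.0544 and 0.152) and without the third Lap2 siRNA library (adjusted p = 0.209) in 15% FBS.

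Serum raised Ccne1 by 0.50 ± 0.10 in control cells (adjusted p = 0.000275) and lowered it by 0.31 after Lap2 siRNA (SE 0.10, adjusted p = 0.013). The fall was not called without the first or the second Lap2 siRNA library in 15% FBS (adjusted p = 0.0672 and 0.0627). The 2 responses differed by -0.81 ± 0.14 (adjusted p = 0.000106), in every alternative fit.

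Ccne2 (ENSMUSG00000028212, chr4:11191351-11204779, plus strand) encodes cyclin E2, the second cyclin of this type. It was at 96.2, 98.8 and 101 normalized counts in control cells in 0.3% FBS and at 131, 102 and 91.4 in 15% FBS. With Lap2 siRNA it stood at 336, 275 and 289 in 0.3% FBS and at 165, 181 and 216 in 15% FBS. All 6 Lap2-depleted libraries were above all 6 control libraries. The raw counts behind these values ran from 82 to 366 reads, the fewest of the 10 genes in control cells. Ccne2 was 3.04-fold higher after Lap2 siRNA in 0.3% FBS, a log2 change of 1.60 ± 0.14 (adjusted p = 4.38e-11), and 1.73-fold higher in 15% FBS, a log2 change of 0.79 ± 0.15 (adjusted p = 9.66e-05). These were the largest rises with Lap2 siRNA among the 10 genes in either serum condition, and both calls held in every alternative fit. With serum it fell by 0.67 after Lap2 siRNA (SE 0.13, adjusted p = 0.000118), to 62.5% of the starved mean. In control cells its log2 difference with serum was 0.14, with an interval of -0.18 to 0.46. The responses differed by -0.82 ± 0.20 (adjusted p = 0.00547). Ccne2 shares 609 exon bases, 17.4% of its exon length, with Ints8 on the other strand, whose log2 changes between the siRNAs were -0.15 and 0.00 in 0.3% and 15% FBS.

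Per length, Ccne1 remained the more abundant E-type cyclin in all groups. Ccne2 made up 22.2 to 24.2% of the E-type sum in starved control cells, 28.4 to 31.7% in starved Lap2-depleted cells, 17.3 to 21.6% in stimulated control cells and 23.7 to 26.02% in stimulated Lap2-depleted cells. The share was higher with Lap2 siRNA than without it in either serum condition, with no overlap between the libraries.

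Promoter windows of 250 bases before the RefSeq start (GRCm38.p6) were found for 6 of the 10 genes: Ccnd3, Ccne1, Cdk4, Cdk6, Cdkn1b and Cdkn2c. Ccnd1, Ccnd2, Ccne2 and Rb1 had no entry. The windows were searched on both strands for the E2F motifs TTTCGCGC and TTTGGCGC (in 0.256% and 0.417% of 32851 mouse promoters), the CRE TGACGTCA (1.55%), the AP-1 motif TGANTCA (6.75%), the CArG box of SRF (1.47%), the E-box CACGTG (6.02%), the GC box GGGCGG (32.7%) and TATAAA (12.4%). None of the E2F, CRE, AP-1 or CArG letters were in any member's window, which says only that these exact letters are not there. The promoter of Ccne1 is shown because it is the member with the largest siRNA difference that had an entry, beside those of Cdkn1b, the member that serum lowered with either siRNA, and of Cdk4, the member called in no comparison. Each is printed 5′ to 3′ on the strand of its gene, up to the gene start in the counted annotation, with complete GC boxes and E-boxes in capitals. They lie at chr7:38107535-38107740 (Ccne1, minus strand), chr6:134920151-134920400 (Cdkn1b, plus strand) and chr10:127063285-127063533 (Cdk4, plus strand).
Ccne1: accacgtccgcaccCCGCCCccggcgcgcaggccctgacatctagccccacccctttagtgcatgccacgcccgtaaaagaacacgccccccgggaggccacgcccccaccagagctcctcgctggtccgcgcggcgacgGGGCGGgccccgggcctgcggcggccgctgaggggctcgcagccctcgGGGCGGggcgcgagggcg
Cdkn1b: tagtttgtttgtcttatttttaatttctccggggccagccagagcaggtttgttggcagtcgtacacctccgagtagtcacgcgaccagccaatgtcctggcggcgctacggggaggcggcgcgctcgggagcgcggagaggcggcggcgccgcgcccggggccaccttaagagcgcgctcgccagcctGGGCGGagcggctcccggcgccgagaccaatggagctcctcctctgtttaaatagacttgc
Cdk4: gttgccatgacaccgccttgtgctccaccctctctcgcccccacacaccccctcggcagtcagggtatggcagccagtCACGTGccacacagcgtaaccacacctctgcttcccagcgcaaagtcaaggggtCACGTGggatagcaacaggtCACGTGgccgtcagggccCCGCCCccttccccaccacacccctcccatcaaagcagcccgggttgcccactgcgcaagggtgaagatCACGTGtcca
The 250-base window of Ccne1 held 4 GC boxes, that of Cdkn1b 1, and that of Cdk4 1 GC box and 4 E-boxes. A match is a description of letters and not evidence of binding.

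Cdk4 (ENSMUSG00000006728, chr10:127063534-127067920, plus strand), which encodes the more abundant of the kinases that D-type cyclins activate, was not called in any comparison. It was at 8501, 8166 and 8517 normalized counts in starved control cells and at 8138, 8124 and 7999 after serum. After Lap2 siRNA it was at 9728, 8804 and 8914 in 0.3% FBS and at 8646, 8399 and 8886 in 15% FBS. The intervals of its log2 changes were -0.17 to 0.07 and -0.20 to 0.04 with serum, and 0.00 to 0.24 and -0.02 to 0.22 with Lap2 siRNA, in control and Lap2-depleted cells and in 0.3% and 15% FBS respectively. Under scaling to total counts Cdk4 was called in all 4 comparisons, with log2 changes of -0.26, -0.31, 0.23 and 0.18, where the medians of all genes were -0.21, -0.23, 0.12 and 0.10. Upper-quartile normalization called the serum response with Lap2 siRNA (-0.19, adjusted p = 0.0104), and DESeq2 called the siRNA difference in 0.3% FBS (0.14, adjusted p = 0.0211), as did the fit without the second Lap2 siRNA library there (0.17, adjusted p = 0.0484). Cdk4 shares 641 exon bases, 19.7% of its exon length, with Tspan31 on the other strand, which averaged 4067 normalized counts. Tspan31 had log2 changes of 0.05 and 0.34 with serum in control and Lap2-depleted cells. Between the siRNAs its log2 changes were -0.29 in 0.3% FBS and -0.004 in 15% FBS.

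Cdk6 (ENSMUSG00000040274, chr5:3341485-3531008, plus strand) encodes the second kinase that D-type cyclins activate. It was at 573, 658 and 654 normalized counts in starved control cells and at 781, 763 and 703 after serum. The Lap2-depleted libraries were at 456, 603 and 672 in 0.3% FBS, the widest spread of any group for this gene, and at 590.3, 532 and 576 in 15% FBS. The control libraries in 15% FBS stood above all others. Cdk6 was lower after Lap2 siRNA in 15% FBS, at 75.6% of the control mean and by 0.40 on the log2 scale (SE 0.10, adjusted p = 0.00269), and this call held in every alternative fit. Its serum change in control cells was 0.25 ± 0.10, with an adjusted p of 0.0526 that 8 of 20 alternative fits put under 0.05. The difference in 0.3% FBS was -0.13, with an interval of -0.33 to 0.08. The serum responses of Cdk6 differed by -0.28 between the siRNAs, with an interval of -0.57 to 0.01, which was not called. Per length Cdk6 was 1.08 to 2.18% of the summed Cdk4 and Cdk6 level over the 12 libraries.

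Cdkn1b (ENSMUSG00000003031, chr6:134920401-134925513, plus strand), encoding p27, was the member that serum lowered with either siRNA. It was at 3089, 3405 and 3352 normalized counts in starved control cells and at 1844, 1796 and 1615 after serum. After Lap2 siRNA it was at 3231, 3074 and 3305 in 0.3% FBS and at 2271, 2027 and 1959 in 15% FBS. Starved libraries of the 2 siRNAs overlapped, and all 6 stood above all stimulated libraries. Serum left 53.4% of the starved mean in control cells, a log2 change of -0.91 ± 0.07 (adjusted p = 1.11e-12), and 65.1% after Lap2 siRNA, a log2 change of -0.62 ± 0.07 (adjusted p = 7.33e-09). The 2 falls differed by 0.29 ± 0.10 (adjusted p = 0.0479), a call that was lost in 8 of the 12 fits without 1 library. In 15% FBS Cdkn1b was higher after Lap2 siRNA by 0.25 ± 0.07 (adjusted p = 0.00767), a call lost without the third control library (adjusted p = 0.0644) or the first Lap2 siRNA library (adjusted p = 0.0906). In 0.3% FBS the difference was -0.04, with an interval of -0.17 to 0.10.

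Cdkn2c (ENSMUSG00000028551, chr4:109660876-109667189, minus strand), encoding p18, was at 2545, 2399 and 2718 normalized counts in starved control cells and at 2358, 2250.2 and 2169 after serum. Under Lap2 siRNA it was at 3029.9, 2604 and 2762 in 0.3% FBS and at 2577, 2810.0 and 2435 in 15% FBS. The one call was in 15% FBS, where it was higher after Lap2 siRNA by 0.21 ± 0.07 (adjusted p = 0.0311), and this was lost in 4 of the 12 fits without 1 library. In 0.3% FBS the difference was 0.13, with an interval of -0.01 to 0.28. The serum responses of Cdkn2c differed by 0.07 between the siRNAs, with an interval of -0.13 to 0.28, which was not called. Its serum change in control cells was -0.18, with an interval of -0.32 to -0.03 and an adjusted p of 0.0589 that 8 of 20 alternative fits put under 0.05. After Lap2 siRNA the serum change was -0.10, with an interval of -0.25 to 0.04. Per length, Cdkn1b made up 43.1% ± 2.12 (SD, n = 3) of the sum of both inhibitors in starved control cells and 31.4% ± 0.77 after serum, against 40.4% ± 1.51 and 32.1% ± 2.18 after Lap2 siRNA.

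Rb1 (ENSMUSG00000022105, chr14:73183673-73325822, minus strand) encodes the retinoblastoma protein, the substrate of the cyclin D kinases and the restraint on E2F. It was at 200.2, 215 and 235 normalized counts in starved control cells and at 400.2, 393 and 304 after serum. After Lap2 siRNA it was at 261, 301 and 255 in 0.3% FBS and at 332, 374 and 378 in 15% FBS. Every stimulated library stood above every starved one. Serum raised Rb1 by 0.76 ± 0.11 in control cells (adjusted p = 2.12e-06) and by 0.41 ± 0.11 after Lap2 siRNA (adjusted p = 0.00448), of which the second was 0.18 (adjusted p = 0.224) under scaling to total counts. The difference of -0.35 between the responses had an interval of -0.68 to -0.02 and an adjusted p of 0.166. In 0.3% FBS Rb1 was 1.26-fold higher after Lap2 siRNA, a log2 change of 0.33 ± 0.12 (adjusted p = 0.0263), and that call was lost without the first control library (adjusted p = 0.0887) or the second Lap2 siRNA library (adjusted p = 0.112). In 15% FBS the difference was -0.02, with an interval of -0.25 to 0.20. Rb1 shares 488 exon bases, 8.11% of its exon length, with Rcbtb2 and 408, 6.78%, with Lpar6, both on the other strand. With serum in control and Lap2-depleted cells, Rcbtb2 changed by -0.04 and 0.16 and Lpar6 by -0.34 and -0.70 on the log2 scale. Between the siRNAs in 0.3% and 15% FBS these changes were -0.26 and -0.06 for Rcbtb2 and -0.75 and -1.11 for Lpar6.

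**Figure D3:**
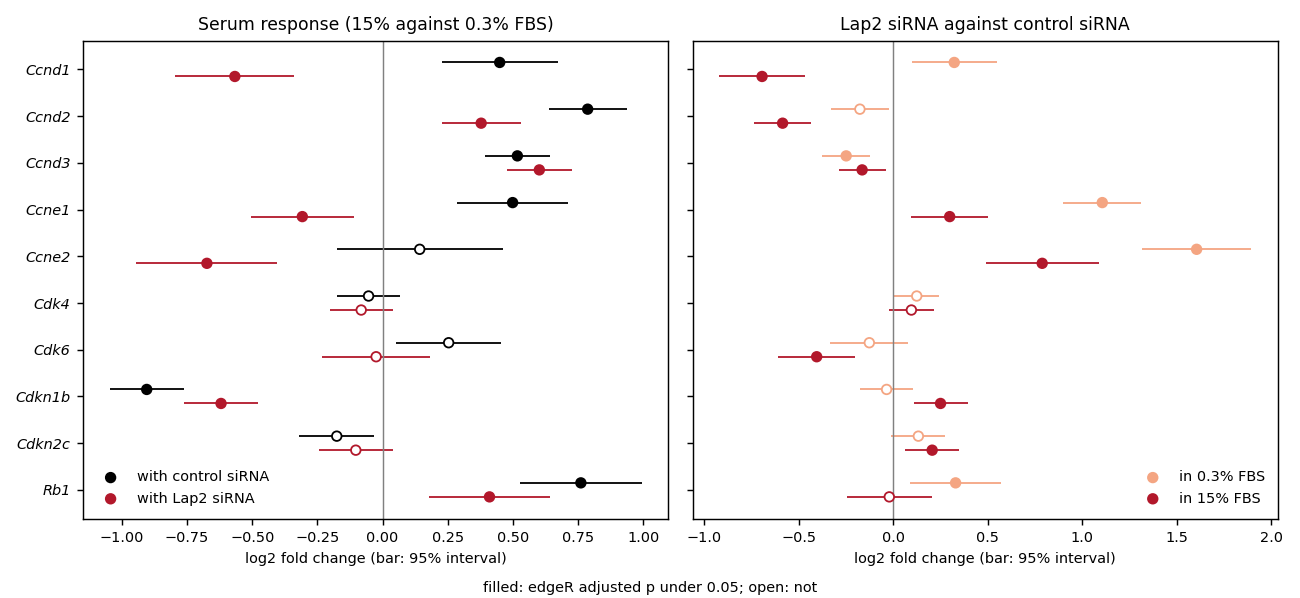
Log2 fold changes of the 10 genes (horizontal axis) with their 95% intervals, for the serum response with each siRNA (left) and for Lap2 siRNA against control siRNA in each serum condition (right). Filled points have an edgeR adjusted p under 0.05. Ccnd1 and Ccne1 change in opposite directions with serum under the 2 siRNAs, at 0.45 and -0.57 and at 0.50 and -0.31.

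Per kilobase of exon the 10 genes covered levels from 1.34 CPM per kilobase (Ccne2) to 122 (Cdk4) in starved control cells. The order there was Cdk4, Cdkn2c, Cdkn1b, Ccnd3, Ccnd2, Ccnd1, Ccne1, Cdk6, Rb1 and Ccne2, and the libraries of no neighbours in it overlapped. In starved Lap2-depleted cells Ccne1, at 9.43, stood above Ccnd1, at 7.03, and overlapped with Ccnd2, at 10.2. Ccne2, at 4.07, stood above Rb1 and Cdk6 there, which overlapped with each other at 2.15 and 1.96. After serum Ccnd3 moved above Cdkn1b with either siRNA, to 29.9 against 18.2 in control cells and 26.7 against 21.7 after Lap2 siRNA. In stimulated control cells Ccnd2 and Cdkn1b overlapped, as did Rb1 and Cdk6, and in stimulated Lap2-depleted cells Rb1 and Ccne2 did. With the length of the longest transcript, Ccne1 likewise stood above Ccnd1 only after Lap2 siRNA, while Ccnd3 stood above Cdkn1b in every group.

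The listed genes that E2F is known to drive in DNA synthesis were higher after Lap2 siRNA in 0.3% FBS. Of 20 listed E2F targets (mainly replication and nucleotide supply genes, with Ccna2, Dnmt1 and Uhrf1), 20 were called higher there, with a median log2 change of 0.99, where 17.8% of all genes were called higher. The list was chosen with earlier results of these data known, so its counts describe the listed genes and are not a test of E2F targets as a class. Tk1, thymidine kinase, rose by 1.51 ± 0.10 (adjusted p = 5.13e-14), Cdt1, a licensing factor, by 1.29 ± 0.11 (adjusted p = 1.17e-11) and Pola1, a DNA polymerase subunit, by 1.26 ± 0.10 (adjusted p = 2.97e-12). All 20 were called in every alternative fit. In 15% FBS 9 of the 20 were higher and 1 lower after Lap2 siRNA (median 0.16, against 11.4% and 12.1% of all genes), among them Cdt1 at 0.77 and Tk1 at 0.49. The 9 became 5 without the first control library or the third Lap2 siRNA library in 15% FBS. The summed level of the fibroblast markers was lower after Lap2 siRNA in either serum condition. Of the 10 markers, 7 were called lower and 2 higher in 0.3% FBS, and 8 lower and 0 higher in 15% FBS. Their part in the E2F target differences was not tested.

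With serum, 11 E2F targets rose and 0 fell in control cells (median 0.24, against 15.6% higher and 13.9% lower of all genes), led by Mcm4 at 0.59, Tyms at 0.53 and Pcna at 0.51. Under scaling to total counts these counts were 5 and 3, where the median of all genes was -0.21. Upper-quartile normalization gave 6 and 3, where the median of all genes was -0.10. The fits without 1 library gave 8 to 14 higher and 0 lower. After Lap2 siRNA 0 rose and 18 fell (median -0.55, against 18.3% and 14.9%), led by Tk1 at -1.02, Cdc6 at -0.996 and Uhrf1 at -0.80. With scaling to total counts 0 rose and 19 fell, where the median of all genes was -0.23. The serum responses differed between the siRNAs for 19 of the 20, each more negative with Lap2 siRNA, where 6.51% of all genes were called in that direction. The E-type cyclins took the same directions in these contrasts, with the exception of Ccne2 in control cells, which was not called.

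Of the 12 other pocket protein, E2F and DP genes, 6 were higher and 0 lower after Lap2 siRNA in 0.3% FBS (median 0.42, against 17.8% higher and 18.6% lower of all genes), and 4 and 0 in 15% FBS (median 0.15, against 11.4% and 12.1%). E2f8 and E2f7, repressor E2Fs, rose by 1.33 ± 0.12 and 0.84 ± 0.12 in 0.3% FBS, and Rbl1, which encodes the Rb relative p107, by 0.96 ± 0.09 (adjusted p = 4.34e-11, 8.5e-07 and 2.79e-10). In 15% FBS Tfdp2, E2f3 and Tfdp1 were the 3 with the largest called changes, at 0.36, 0.28 and 0.27. The 4 calls in 15% FBS became 2 without the third control library in either serum condition or without the first Lap2 siRNA library in 15% FBS. With serum 3 rose and 2 fell in control cells (median 0.13), close to the 15.6% and 13.9% of all genes, with E2f8 at 0.93, E2f5 at 0.45 and Tfdp2 at -0.43, while 0 rose and 5 fell after Lap2 siRNA (median -0.19, against 18.3% and 14.9%), with E2f7 at -0.84, Rbl1 at -0.66 and E2f8 at -0.35. Under scaling to total counts serum raised 1 and lowered 4 in control cells and raised 0 and lowered 9 after Lap2 siRNA. Lap2 siRNA then raised 10 in 0.3% FBS and 6 in 15% FBS and lowered 0 in either. The medians of all genes were -0.21 and -0.23 with serum and 0.12 and 0.10 between the siRNAs under that scaling.

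Of 17 genes for CDK2, the CDK-activating kinase and the turnover of G1 regulators, 7 were higher and 1 lower after Lap2 siRNA in 0.3% FBS (median 0.07, against 17.8% and 18.6% of all genes), and 4 and 0 in 15% FBS (median 0.16, against 11.4% and 12.1%). Skp2 and Cks1b, parts of the ubiquitin ligase that marks p27 for destruction, rose by 1.01 ± 0.08 (adjusted p = 4.79e-12) and 0.61 ± 0.08 (adjusted p = 3.96e-07) in 0.3% FBS, and Fzr1, an activator of the anaphase-promoting complex, by 0.50 ± 0.07 (adjusted p = 1.1e-06). In 15% FBS the 3 largest called rises were Cdc25a (0.49), a phosphatase that activates CDK2, Fbxo4 (0.46) and Fzr1 (0.24), and the counts ranged from 2 to 6 higher and 0 to 2 lower over the fits without 1 library. Serum raised 2 and lowered 3 in control cells (median -0.01), close to the 15.6% and 13.9% of all genes, with Skp2 at 0.32 and Fbxo31 and Cdk7 at -1.15 and -0.28, and raised 1 and lowered 4 after Lap2 siRNA (median -0.04, against 18.3% and 14.9%), with Fbxo31 at -0.87, Fzr1 at -0.50 and Skp2 at -0.47. Scaled to total counts, 0 rose and 9 fell with serum in control cells, and 0 rose and 11 fell after Lap2 siRNA. Lap2 siRNA then raised 9 and lowered 1 in 0.3% FBS and raised 10 and lowered 0 in 15% FBS. That scaling put the median of all genes at -0.21 and -0.23 with serum and at 0.12 and 0.10 between the siRNAs.

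Among 6 other CDK inhibitors, 4 were tested, and Cdkn2a and Cdkn2b did not pass the filter. Cdkn1a, which encodes p21 and is an immediate serum response gene, rose with serum by 1.09 ± 0.09 in control cells (adjusted p = 6.44e-12) and by 0.84 ± 0.09 after Lap2 siRNA (adjusted p = 2.64e-09). Cdkn2d, which encodes p19, fell with serum by 0.69 and 0.87 (SE 0.14 and 0.13, adjusted p = 0.000152 and 2.17e-06) and was higher after Lap2 siRNA by 0.61 ± 0.13 in 0.3% FBS (adjusted p = 0.000228) and by 0.43 ± 0.14 in 15% FBS (adjusted p = 0.024). In counts, 2 of the 4 were higher and 0 lower after Lap2 siRNA in 0.3% FBS (against 17.8% and 18.6% of all genes), and 1 and 0 in 15% FBS (against 11.4% and 12.1%). The 2 in 0.3% FBS were Cdkn2d and Cdkn3, the latter at 0.66 (edgeR adjusted p = 0.00161). The 1 call in 15% FBS, Cdkn2d, fell away without the second or the third control library or the first or the second Lap2 siRNA library there. With serum 1 of the 4 rose and 1 fell with either siRNA. Of all genes, 15.6% were called higher and 13.9% lower with serum in control cells, and 18.3% and 14.9% after Lap2 siRNA. Cdkn1c had 0 to 3 reads per library, and with the stricter filterByExpr filter, which left it out, the medians of the other 3 were 0.60 and 0.27 with Lap2 siRNA and -0.04 and -0.42 with serum, with 2 lower after serum in Lap2-depleted cells. Over all 4 genes these medians were 0.35, 0.07, -0.36 and 0.21, so the last turned sign.

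**Figure D4:**
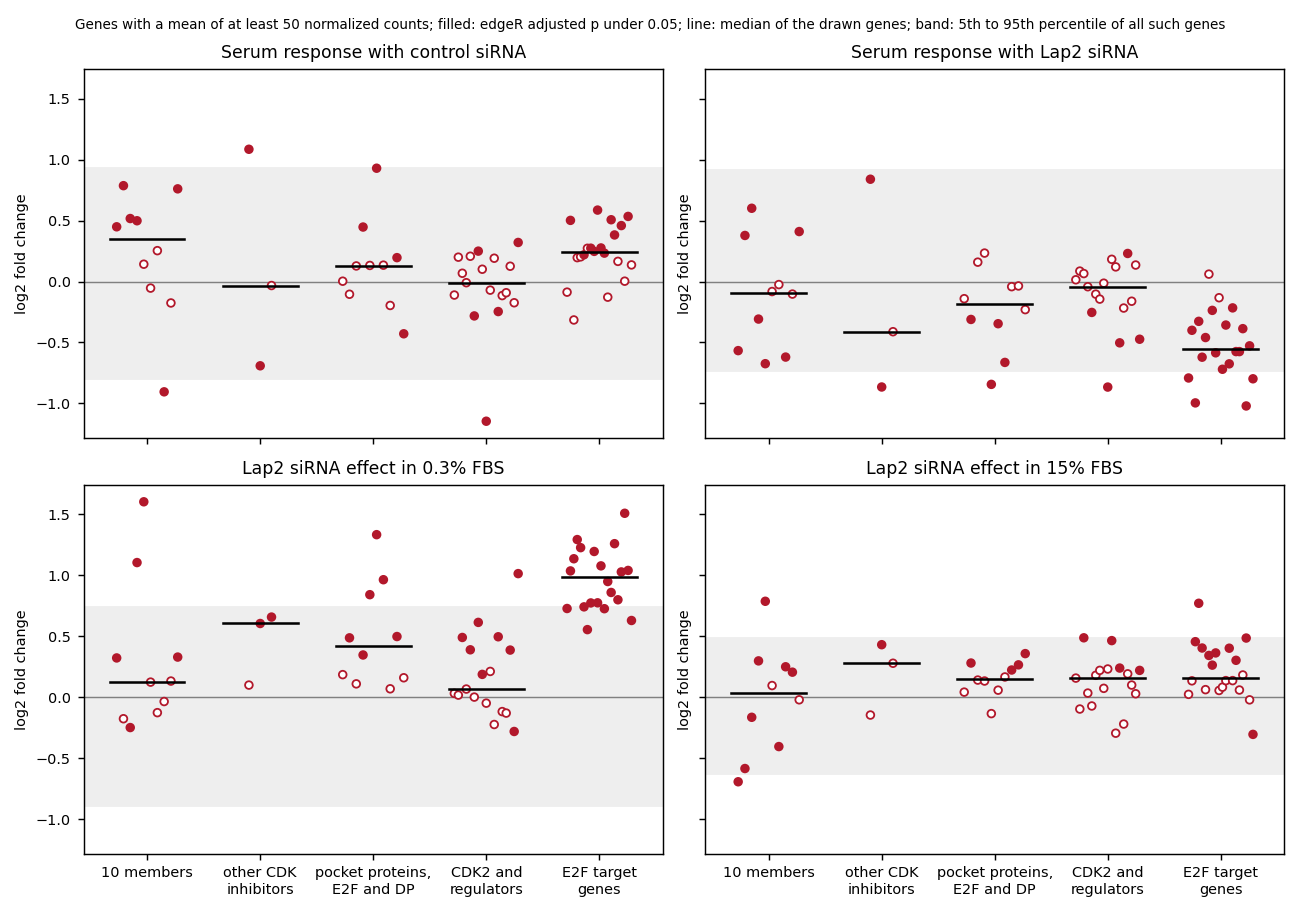
Log2 fold changes (vertical axis) of the 10 genes and of the 4 lists around them in the 4 comparisons, drawn where the mean over all libraries reached 50 normalized counts, with filled points for an edgeR adjusted p under 0.05, a line at the median of the drawn genes and a band from the 5th to the 95th percentile of all such genes. Cdkn1c, E2f2 and E2f6 fell below that mean and are not drawn. The E2F targets lie between 0.56 and 1.51 after Lap2 siRNA in 0.3% FBS.

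For the 5 genes called in the difference of serum responses, the genes of most alike pattern over the 12 libraries were sought by Pearson's r of log2 CPM among 10444 genes. The 4 groups drive most of such an r, so it is given as a description. Ccne1 was most like Rpa1 (0.98) and Rrm2 (0.98), a single-strand DNA binding subunit and a ribonucleotide reductase subunit, followed by Prr11 (0.97). Ccne2 was most like Prpf31 (0.99), Nudt9 (0.99) and Nadk2 (0.98), and Ccnd2 was most like Stard4, Med14 and Cap1 (0.98 each). Ccnd1 had no close counterpart, its nearest being Plxna4 (0.91), Piezo1 (0.90) and Phactr4 (0.89). Cdkn1b was most like Pithd1, Zfp606 and Thap11 (0.99 each).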

How the data were processed

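RNA-seq was analysed in 12 libraries of NIH 3T3 cells. The authors aligned reads to mm10 (GRCm38) with TopHat2 and counted them per Ensembl gene with HTSeq, and the deposited values are raw counts; versions and the strand setting are not given in the sources used here. Libraries were grouped by the siRNA and serum labels.

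Counts were tested with edgeR 4.0.16 in R 4.3.3 (TMM, quasi-likelihood test, 1 mean per group over 12 libraries), for the 18668 genes whose count exceeded 1 in 3 or more libraries. P-values were adjusted by Benjamini-Hochberg over all of them, with a threshold of 0.05. Intervals of log2 changes are 95% intervals from that fit. The script was tested on simulated data. Lengths came from GENCODE M21, of the same build.

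All 10 genes were named, with Tmpo, Fos, Egr1 and Myc as checks. From each pathway list, at most 3 genes per comparison were named, those called with the largest change and averaging 100 or more normalized counts, and 3 genes of like pattern were named per gene called in the interaction. Cdkn3 was named outside this rule, to show which genes a count held. The 10 genes and all lists were chosen with earlier results of these data known.

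Alternatives were other scalings and filters, DESeq2 1.42.0, the replicate number as a block, 2-group fits and leaving out each library. Files held only gene identifiers, coordinates and counts, and 99.3% of genes received a symbol from the reference table. One pseudogene, Ccnd3-ps, held 1 read in all.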

Additional observations from a re-analysis of the deposited data

Results flagged for a closer look

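The serum response differed between the siRNAs, by the edgeR interaction test, for 5 of the 10 genes: Ccnd1 (-1.02 on the log2 scale, Lap2 minus control siRNA), Ccnd2 (-0.41), Ccne1 (-0.81), Ccne2 (-0.82) and Cdkn1b (0.29). From the lists, only the genes called by the same test with the largest differences are given here. They were E2f8 (-1.28), E2f7 (-0.98), Rbl1 (-0.80), Skp2 (-0.79), Cdk2 (-0.46), Cks1b (-0.39), Tyms (-1.06), Tk1 (-1.02) and Mcm5 (-0.996). Other listed genes were called too, since 19 of the 20 E2F targets had a more negative response with Lap2 siRNA. Of the check genes, Tmpo (-0.79), Egr1 (-0.38) and Myc (-0.81) also differed. Myc, a serum-induced transcription factor, rose 13.4-fold with serum in control cells and 7.63-fold after Lap2 siRNA, from 362 and 605 normalized counts in starved cells to 4847 and 4619, and Fos showed no called difference (-0.04).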

How the results depend on the processing

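Over 20 alternative fits per result (19 for the interaction), 902 values for single members kept direction and side of the threshold, 39 lost a call, 35 gained one and 14 turned sign, none of the latter in a call. The cause was not tested. The number of members called after Lap2 siRNA in 15% FBS was 8 and ranged from 5 to 8 over the fits without 1 library, while no other total of members called moved by over 1.5 times. The split by direction moved more: scaled to total counts, serum after Lap2 siRNA gave 1 higher and 7 lower (3 and 4 as reported). The lower calls went from 1 to 3 for serum in control cells and from 1 to 0 for Lap2 siRNA in 0.3% FBS under that scaling, and each was 2 under several other filters and fits without 1 library. The 1 higher call of the interaction, Cdkn1b, was absent under total-count and upper-quartile scaling and the block. Scaling to total counts turned Ccne2 with serum in control cells (-0.0637), Cdkn1b in 0.3% FBS (0.0744) and Rb1 in 15% FBS (0.065). Without 1 library, Ccne2 in control cells ranged from -0.0292 to 0.2436, Cdk6 with serum after Lap2 siRNA from -0.1873 to 0.0797 and in 0.3% FBS from -0.2398 to 0.0367, Cdkn1b in 0.3% FBS from -0.064 to 0.0137, Rb1 in 15% FBS from -0.1292 to 0.037, and the Cdkn2c interaction from -0.0028 to 0.113. The counts of E2F targets under these alternatives were added after seeing the data.

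The titles carry a running number over all libraries, so the replicate number used here is the order within a group. Libraries of the same replicate number in different groups did not deviate together (r of -0.12 to 0.10 over 18 pairs, against -0.21 to 0.22 over 36 other pairs). Whether libraries were paired, in this or another order, cannot be told from these values. With the replicate number as a block, Ccnd3 in 15% FBS (adjusted p = 0.0514) and the Cdkn1b interaction (0.0504) lost their calls and Cdk6 with serum in control cells gained one (0.0368). Depth limits Ccne2 most, at 82 to 148 reads per control library in 15% FBS.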
